A study of Caenorhabditis elegans with 6 samples.

Results

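The miR-51 family of Caenorhabditis elegans was followed across adult animals with an oogenic or a spermatogenic germ line. Its 6 guide miRNAs, miR-51, miR-52, miR-53, miR-54, miR-55 and miR-56, and the star strand miR-56* were taken by name from the layout of a spotted miRNA array. They made up 7 of the 108 miRNAs on the array, and each was printed as 4 spots. The animals were of 2 genotypes, fem-2(b245ts) and fem-3(q20ts), both temperature-sensitive germline sex mutants. Both were grown as synchronized populations at 25 °C and collected as adults of day 1, 24 hours past late L4. At this temperature fem-2(b245ts), a loss-of-function allele, makes oocytes and no sperm, and fem-3(q20ts), a gain-of-function allele, makes sperm and no oocytes. RNA came from whole populations, so that fewer cells of a type and less miRNA per cell cannot be told apart. Per genotype, 2 technical arrays of biological replicate 1 and a single array of biological replicate 2 were available, so that 6 arrays stand for 4 biological samples. No wild-type sample was used here.

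The members of the family share one seed, the stretch near the 5′ end by which a miRNA pairs with its targets, and this seed is also that of miR-99 and miR-100 of other animals, one of the oldest animal miRNA families. In the worm the guides are broadly expressed and redundant: loss of single members has little visible effect, whereas loss of all of them is lethal in the embryo, with defects that include a poorly attached pharynx. A star strand is the partner arm cut from the same hairpin and is mostly degraded. In the RefSeq annotation of the WBcel235 assembly, mir-51 and mir-53 are consecutive miRNA genes on chromosome IV, and mir-52 is elsewhere on chromosome IV. The genes mir-54, mir-55 and mir-56 lie within the span of 1 protein-coding gene, F09A5.3, on chromosome X, with mir-56 and mir-55 consecutive and 1 further annotated miRNA gene, F09A5.15, before mir-54.

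The arrays had been scaled to one total, and their median spot intensity was 101 to 178. The 95th percentile of the 32 Buffer spots of an array, used here as its Buffer level, ranged from 19.0 to 127. Of the 108 miRNAs, 63 to 104 were above it on a given array, and 87 had a mean signal high enough to be tested. The genotype labels were checked on miR-35 to miR-41, which are abundant in oocytes and embryos: their share of the summed miRNA signal was 11.8% to 14.2% for fem-2(b245ts) and 0.347% to 0.483% for fem-3(q20ts).

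All 7 members were tested, and on each of the 6 arrays all of them exceeded the Buffer level. The guide signals were 3.57 to 324 times that level. The signal of miR-56* was 1.57 to 9.23 times that level. This ratio was lowest on the fem-2(b245ts) arrays of replicate 1, where the Buffer level was highest. On the 4 arrays with a scanner file, the percent of saturated pixels was 0 for every member spot. The signal-to-noise score of a spot was 2.80 to 295 for the guides and 1.38 to 19.7 for miR-56*. On the first technical array of fem-2(b245ts) replicate 1, that of miR-56* was 1.38 to 2.71. The SD over the 4 spots of an array was 0.12 to 0.49 on the log2 scale for the guides. Signals of different oligos on an array depend on each oligo's own binding, so the members were each compared with themselves across samples and were not ranked by level. The members are related in sequence, no probe sequences were used here, and binding of one member's RNA to the spots of another was not tested.

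The comparison of fem-3(q20ts) with fem-2(b245ts) asked whether the family differs between a spermatogenic and an oogenic germ line. None of the 7 members passed the test, a limma fit over all 87 tested miRNAs with Benjamini-Hochberg adjustment at 0.05. The smallest limma adjusted p of a member was 0.564. Unadjusted, 0 of 7 members were under 0.05, against 14 of all 87 tested miRNAs. In the same fit 8 of 87 miRNAs passed (9.20%), the 7 of miR-35 to miR-41 lower in fem-3(q20ts) and 1 higher (1.15%). The estimates lay mostly on one side: 5 of 6 guides and miR-56* had a higher mean log2 signal in fem-3(q20ts). So did 53 of the 87 tested miRNAs. The median log2 difference of the 6 guides was 0.45, against 0.18 for all tested miRNAs. These are differences of mean log2 intensity, fem-3(q20ts) minus fem-2(b245ts). With 2 samples a genotype, an exact two-sided permutation test cannot go below 0.333.

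**Figure D1:**
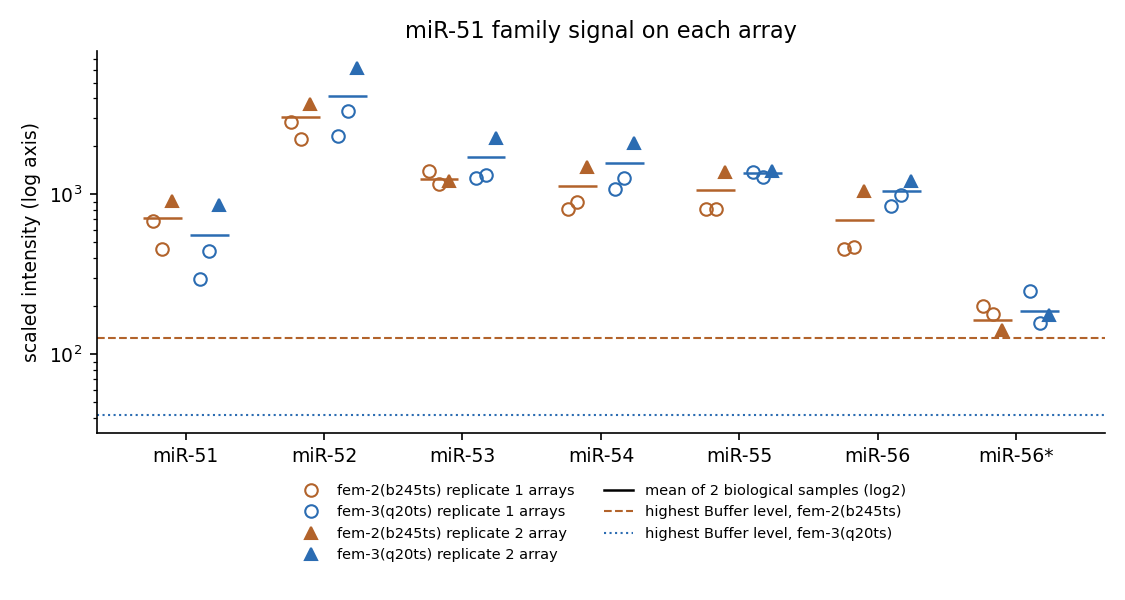
Scaled intensity (log axis) of each member on each of the 6 arrays, fem-2(b245ts) in brown and fem-3(q20ts) in blue, open circles for the 2 technical arrays of replicate 1, triangles for replicate 2 and a bar for the mean log2 value of the 2 biological samples. Every member lies above the highest Buffer level of its genotype (127 and 41.5, dashed and dotted lines), and for each of the 7 the arrays of the genotypes overlap.

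Among the genes on chromosome IV, miR-51 was the guide with a negative difference. Its intensity in fem-2(b245ts) was 677 and 458 on the technical arrays of replicate 1 and 908 in replicate 2. In fem-3(q20ts) it was 294 and 442 in replicate 1 and 861 in replicate 2. The replicate 2 arrays of both genotypes were the high ones, and the genotypes overlapped. Averaged over the technical arrays, miR-51 averaged 733 ± 248 (SD, n = 2 biological samples) in fem-2(b245ts), against 611 ± 354 (SD, n = 2) in the other genotype. This was a log2 difference of -0.35 (SE 0.50; limma adjusted p = 0.744), with a 95% interval for the fem-3(q20ts) to fem-2(b245ts) ratio of 0.343 to 1.79. The difference was -0.63 in replicate 1 and -0.08 in replicate 2.

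For miR-52, the intensities in fem-2(b245ts) were 2832 and 2214 in replicate 1 and 3692 in replicate 2. In fem-3(q20ts) they were 2333 and 3303 in replicate 1 and 6155 in replicate 2. Here too the replicate 2 array of each genotype was its highest, and one fem-3(q20ts) array of replicate 1 lay between the fem-2(b245ts) arrays of that replicate. The means were 3098 ± 840 and 4465 ± 2389 (SD, n = 2), a log2 difference of 0.44 (SE 0.47; limma adjusted p = 0.593) and a ratio interval of 0.630 to 2.93. The difference was 0.15 in replicate 1 and 0.74 in replicate 2. After quantile normalization the difference of miR-52 was 0.058.

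The neighbour of mir-51, mir-53, gave intensities of 1404 and 1155 in replicate 1 and 1220 in replicate 2 of fem-2(b245ts). In fem-3(q20ts) the intensities of miR-53 were 1257 and 1328 in replicate 1 and 2253 in replicate 2. Only the last of these stood apart from the rest. The biological samples of the genotypes did not overlap, with 1247 ± 37.5 (SD, n = 2) in fem-2(b245ts) against 1773 ± 679 (SD, n = 2), but in replicate 1 the difference was 0.02 against 0.88 in replicate 2. The mean log2 difference of 0.45 (SE 0.38) did not pass (limma adjusted p = 0.572), and its ratio interval was 0.732 to 2.56. miR-53 was the 1 member of 7 whose fem-3(q20ts) samples both lay above both fem-2(b245ts) samples, an arrangement that 25 of the 87 tested miRNAs had (28.7%).

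On chromosome X, miR-54 had the most even difference between the replicates. Its intensities in fem-2(b245ts) were 815 and 894 in replicate 1 and 1485 in replicate 2. In fem-3(q20ts) they were 1079 and 1274 in replicate 1 and 2098 in replicate 2. Within each replicate number the fem-3(q20ts) arrays were higher, while across the numbers fem-2(b245ts) replicate 2 exceeded fem-3(q20ts) replicate 1. The log2 difference was 0.46 in replicate 1 and 0.50 in replicate 2, with a mean of 0.48 (SE 0.44; limma adjusted p = 0.574). The ratio interval was 0.671 to 2.89.

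The intensity of miR-55 in fem-2(b245ts) was 810 and 805 in replicate 1 and 1388 in replicate 2. In fem-3(q20ts) it was 1386 and 1280 in replicate 1 and 1399.5 in replicate 2. The 2 fem-2(b245ts) arrays of replicate 1 were low, and the other 4 arrays lay together. The log2 difference was 0.72 in replicate 1 and 0.01 in replicate 2, with a mean of 0.37 (SE 0.38; limma adjusted p = 0.593) and a ratio interval of 0.693 to 2.40.

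The largest difference of the family was that of miR-56. Its intensities were 454 and 468 in replicate 1 and 1050.3 in replicate 2 of fem-2(b245ts), and 842 and 994 in replicate 1 and 1215 in replicate 2 of fem-3(q20ts). As for miR-55, the fem-2(b245ts) arrays of replicate 1 were the low ones. The means were 756 ± 417 and 1065 ± 212 (SD, n = 2), a log2 difference of 0.60 (SE 0.46; limma adjusted p = 0.564), with 0.99 in replicate 1 and 0.21 in replicate 2. The ratio interval was 0.707 to 3.25. Without fem-2(b245ts) replicate 1 the difference of miR-56 was 0.0059. By absolute size this difference ranked 27 among the 87 tested miRNAs.

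The star strand of the same hairpin, miR-56*, had intensities of 199.6 and 179 in replicate 1 and 143 in replicate 2 of fem-2(b245ts), and of 249.6 and 157 in replicate 1 and 176 in replicate 2 of fem-3(q20ts). The arrays of the genotypes were mixed in order. The log2 difference was 0.18 (SE 0.33; limma adjusted p = 0.805), 0.07 in replicate 1 and 0.30 in replicate 2, and the ratio interval was 0.656 to 1.96. Its size depended on the scaling: the difference of miR-56* was 0.71 after quantile normalization, 0.56 under median centring and 0.74 on the spike control. It was -0.14 when arrays were scaled on the miRNA spots outside the miR-35 family and miR-42. The difference of miR-56 exceeded that of miR-56* by 0.92 in replicate 1 and fell below it by 0.09 in replicate 2, so its sign differed between the replicates.

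**Figure D2:**
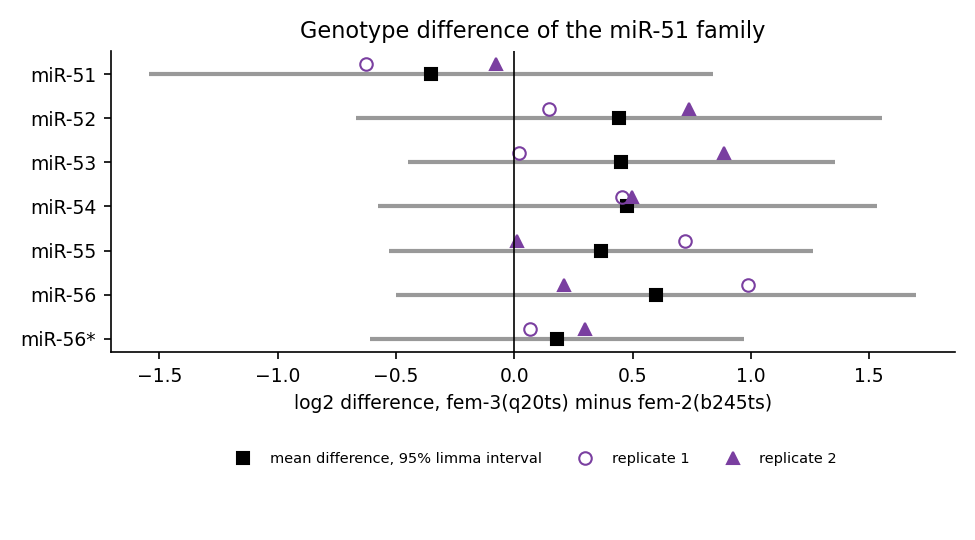
Log2 difference, fem-3(q20ts) minus fem-2(b245ts), of each member: squares are means over 2 biological samples a genotype with the 95% limma interval, and open circles and triangles are the differences within replicates 1 and 2. All 7 intervals include 0, and the within-replicate points run from -0.63 to 0.99.

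All 7 members kept one sign in both replicates, as did 70 of the 87 tested miRNAs (80.5%), and 6 of 7 members were higher in fem-3(q20ts) in both, against 44 of the 87 tested miRNAs (50.6%). The sizes were less even than the signs. In replicate 1 the differences of the chromosome X genes were 0.46 to 0.99 and those of the chromosome IV genes -0.63 to 0.15, without overlap. In replicate 2 the chromosome X genes were at 0.01 to 0.50 and the chromosome IV genes at -0.08 to 0.88. The median of the chromosome X genes minus that of the chromosome IV genes was 0.70 in replicate 1 and -0.53 in replicate 2. The medians of the mean differences were 0.48 and 0.44. In the spot order of the tested miRNAs, miR-51, miR-52 and miR-53 came between miR-50 and miR-124. Like them, miR-50 and miR-124 were lower on the second technical array of fem-2(b245ts) replicate 1 (log2 differences -0.58 and -0.47). In fem-3(q20ts) miR-50 and miR-124 were at -0.11 and 0.09, against 0.59, 0.50 and 0.08 for miR-51, miR-52 and miR-53. The spot order placed miR-54, miR-55 and miR-56 between miR-88 (0.66 in fem-2(b245ts), 0.31 in fem-3(q20ts)) and miR-57 (0.05 and -0.43). Chromosome and place on the array cannot be told apart here, and the part of either was not tested. Relative to the other members on the same array, miR-51 was the guide that stood lower in fem-3(q20ts) in both replicates: its difference was below that of miR-52 by 0.78 in replicate 1 and 0.81 in replicate 2, and below that of its gene neighbour miR-53 by 0.65 and 0.96. Against the chromosome X genes the contrast was less even: -1.08 and -0.58 for miR-51 minus miR-54, -1.35 and -0.09 for miR-51 minus miR-55, and -1.62 and -0.29 for miR-51 minus miR-56. These contrasts within an array do not depend on a factor per array, but quantile normalization changed them, with a mean difference of -0.15 for miR-51 beside 0.058 for miR-52. They were picked after the values were seen and were not tested.

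By their median, the guides differed more between the biological replicates than between the genotypes, a contrast that was not tested. In fem-2(b245ts), replicate 2 was above replicate 1 for 5 of 6 guides, with a median log2 difference of 0.74. In fem-3(q20ts) it was above for 6 of 6, with a median of 0.82. The corresponding medians over all tested miRNAs were 0.30 and 0.17. For 5 of 6 guides replicate 2 was the higher in both genotypes, as it was for 48 of 87 tested miRNAs (55.2%). With genotype and replicate number in one limma fit, a comparison added after the values were seen, the log2 difference of replicate 2 minus replicate 1 was 0.98 for miR-51 (95% interval 0.33 to 1.63; limma adjusted p = 0.127), 0.85 for miR-52 (0.18 to 1.53; limma adjusted p = 0.136), 0.82 for miR-54 (0.35 to 1.29; limma adjusted p = 0.114) and 0.80 for miR-56 (0.0040 to 1.59; limma adjusted p = 0.171). For miR-53 and miR-55 it was 0.37 (-0.48 to 1.22) and 0.43 (-0.32 to 1.18). The unadjusted limma p of this term was under 0.05 for 4 of 6 guides and for 25 of the 87 tested miRNAs. None of the guides passed after adjustment over all miRNAs, and 1 of the 87 tested miRNAs did (1.15%), a miRNA outside the family. The star strand went the other way, at -0.29. The same-numbered arrays of both genotypes share a token in their descriptions whose meaning the labels do not give, so biological replicate and any shared array set cannot be told apart.

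**Figure D3:**
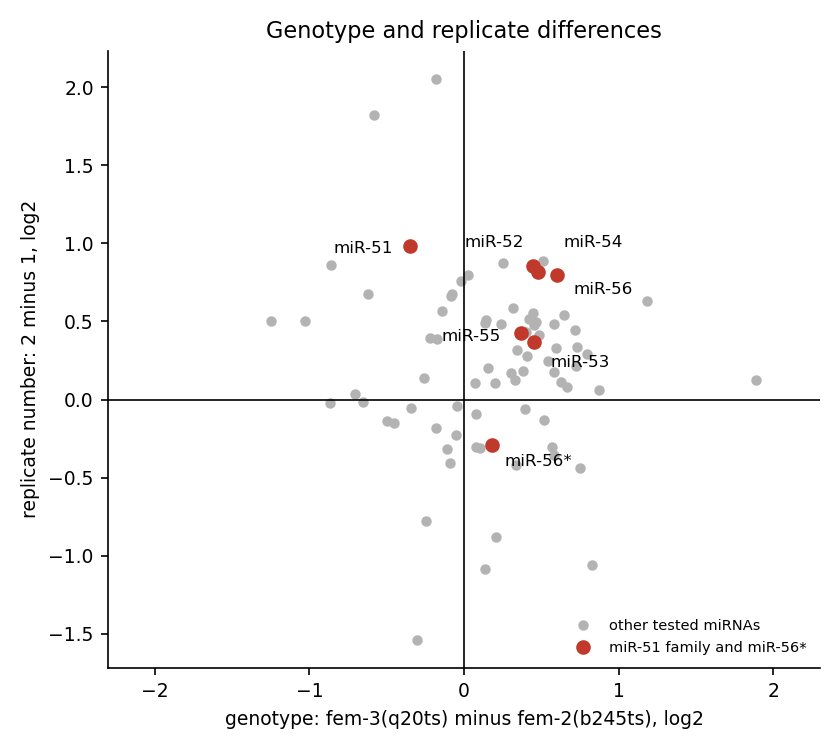
Log2 difference between the genotypes (x) against the log2 difference between the replicate numbers (y) for 80 of the 87 tested miRNAs, the 7 members in red and the others in grey; 7 miRNAs with genotype differences beyond the x axis are not drawn. The 6 guides lie above 0 on the y axis, from 0.37 to 0.98, and miR-56* lies below it.

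For most guides the technical arrays differed less than the biological replicates. The guides' median absolute difference between the 2 technical arrays of replicate 1 on the log2 scale was 0.21 for fem-2(b245ts) and 0.24 for fem-3(q20ts). Over all tested miRNAs these medians were 0.41 and 0.24. The largest was that of miR-51, which was lower on the second array in fem-2(b245ts) (-0.56) and higher on it in fem-3(q20ts) (0.59). The next was miR-52, at -0.36 and 0.50. For miR-51 in both genotypes, and for miR-52 in fem-3(q20ts), the technical arrays differed by more than the genotypes did (-0.35 and 0.44). By contrast, miR-54, miR-55 and miR-56 differed by at most 0.24 between technical arrays. The chromosome IV and chromosome X guides also lay apart in spot order, as given above.

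The level of the family difference moved with the scaling of the arrays. As scaled by the authors, the guides' median was 0.45. It was 0.62 after quantile normalization, 0.82 after centring each array on the median tested miRNA and 1.01 on the spike control. It was 0.12 when arrays were scaled on the miRNA spots outside the miR-35 family and miR-42. That total lacks the miR-35 family, whose share of the signal differs between the genotypes, and also all spots of other kinds. Which of these omissions moved the median was not tested. Under the same scalings the median of all tested miRNAs moved from 0.18 to 0.38, 0.56, 0.74 and -0.14. The guides' median minus that of the other tested miRNAs was 0.31, and 0.25 after quantile normalization. That distance depended on single samples: with fem-2(b245ts) replicate 1 left out it was 0.024, with fem-2(b245ts) replicate 2 left out 0.40, with fem-3(q20ts) replicate 1 left out 0.58, and with fem-3(q20ts) replicate 2 left out -0.059. In the scaled values of replicate 1 alone, the guides' median was 0.30 and that of the other tested miRNAs 0.22. From the scanner files of replicate 1, after normexp background correction and quantile normalization, the distance was -0.042. The scanner files gave a value with no test. The call count of the family stayed at 0 under each of the scalings named above. The difference of miR-51 turned positive on the spike control (0.21) and under median centring (0.02). Single samples moved the guides' median as much. Without fem-2(b245ts) replicate 1 it was 0.042 and without fem-3(q20ts) replicate 2 it was 0.055, while without fem-2(b245ts) replicate 2 it was 0.74 and without fem-3(q20ts) replicate 1 it was 0.83.

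**Figure D4:**
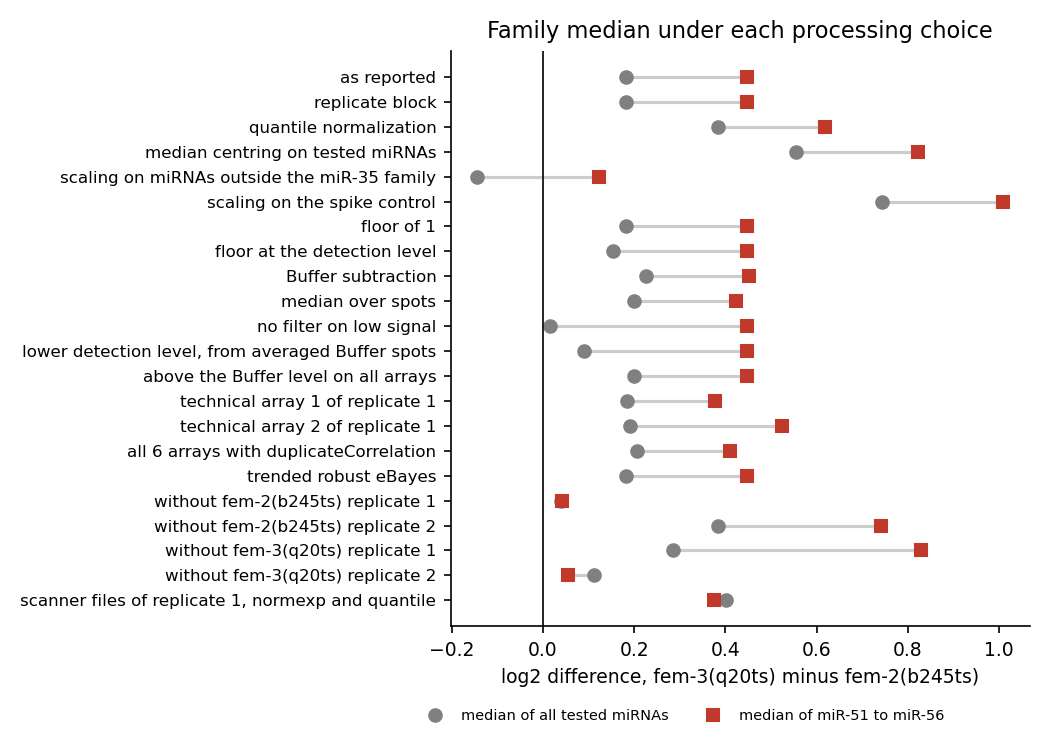
Median log2 difference, fem-3(q20ts) minus fem-2(b245ts), of miR-51 to miR-56 (red squares) and of all tested miRNAs (grey circles) under each processing choice, 1 line a choice. The family median runs from 0.042 to 1.01 and is positive throughout, and 2 of the 4 choices that leave out 1 biological sample bring it near 0.

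The tested miRNAs outside the family with the most similar course were found by the root mean square difference of centred log2 values from the family's median profile over the 4 biological samples. That profile was -0.54 and 0.18 in replicates 1 and 2 of fem-2(b245ts) and -0.18 and 0.57 in those of fem-3(q20ts). Among the guides, miR-54 lay nearest to it (0.070) and miR-51 farthest (0.40). The nearest of the 80 other miRNAs were miR-230 (0.093), miR-75 (0.10), miR-259 (0.10) and miR-228 (0.13), and the median of the 80 was 0.43. miR-75 was at 669.8 and 1090.4 in fem-2(b245ts) and at 902 and 1251 in fem-3(q20ts). miR-230 and miR-259 were dim: in fem-2(b245ts) 1 of 3 arrays had them above the Buffer level, so their course there is less certain. With 4 samples this likeness is a description.

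Worm genetics links the family to other miRNAs: loss of miR-51 family members is known to modify the phenotypes of mutants in lsy-6, in the let-7 family (let-7, miR-48, miR-84 and miR-241), which times larval development, and in miR-240 and miR-786. Of these 7 partners, 5 were on the array under these names, all 5 were tested, and 0 passed the limma test (9.20% of all tested miRNAs passed). Their log2 differences were 0.14 for let-7, 0.34 for miR-48, -0.22 for miR-84, 0.07 for miR-241 and 0.48 for miR-240, with limma adjusted p-values of 0.564 to 0.897. let-7 and miR-241 had differences of opposite sign in the 2 replicates. In fem-2(b245ts), 1 of 3 arrays had miR-240 above the Buffer level. The median of the 5 was 0.14, against 0.45 for the guides and 0.18 for all tested miRNAs.

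Somatic markers were compared in the same fit, and their part in the family's values was not tested. Of 5 markers, 4 were on the array and 0 passed (9.20% of all tested miRNAs passed). The log2 differences were -0.17 for miR-1 of muscle, 0.41 for miR-124 of neurons, 0.75 for miR-60 of the intestine (limma adjusted p = 0.361) and 0.42 for miR-228 of glia. The 4 ranged from -0.17 to 0.75, with a median of 0.42, against 0.45 for the guides.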

How the data were processed

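Intensities of 6 one-colour Cy3 arrays were analysed. Per the series' design text, the authors scaled the deposited intensity values to equal sums per array. Per the file headers, the deposited scanner files of the 4 replicate 1 arrays give mean spot and median background intensity, a percent of saturated pixels and a signal-to-noise score per spot. The scaled intensity equalled mean minus background intensity after multiplication by a constant of that array (tolerance 0.1%), except for 1 spot on each of 2 arrays, 0 of them a member's. Spot names of replicate 2 were taken over by spot number. The scanner is not given in the sources used here.

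Values were floored at 12.8 (the 10th percentile of positive values), log2-transformed, averaged over 4 spots and then over technical arrays. A miRNA was tested if its mean exceeded 59.9, the mean over arrays of the 95th percentile of the Buffer spots. This kept 87 of 108. Of the 108 names, 100 matched the RefSeq gene table (WBcel235), among them all 7 members. Differences were tested two-sided across all tested miRNAs in R 4.3.3 by limma 3.58.1 (lmFit, eBayes; 2 residual and 4.73 prior degrees of freedom) and Benjamini-Hochberg adjustment, a procedure tested on simulated data. The labels call the replicates biological without saying how they were separated.

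The members, lists and named miRNAs were chosen with earlier results of these data known. The miRNAs named were all members, every partner on the array, the 4 others nearest the family profile, the somatic markers on the array, and miR-35 to miR-41 as a check of the labels. lsy-6 and miR-786 were not analysed here. Of the 5 somatic markers, 4 were measured. Replicate 1 minus replicate 2 correlated between the genotypes across tested miRNAs (r = 0.621, n = 87, miRNAs not being independent). With 2 pairs this does not settle a pairing, so the replicate number was left out of the model, and a replicate block was an alternative.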

Additional observations from a re-analysis of the deposited data

How the results depend on the processing

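The count of called members was 0 of 7, and that of partner miRNAs 0 of those tested, in all 20 alternative fits, including the fit with the replicate block, in which 9 of 87 miRNAs passed. The median of the guides, 0.45, was positive in all 21 alternatives. It was 0.62 after quantile normalization, 0.82 under median centring and 1.01 on the spike control. Scaling without the miR-35 family, on the miRNA spots outside it and miR-42, gave 0.12. The median was 0.38 and 0.52 with the first or second technical array of replicate 1 alone, and 0.41 with all 6 arrays and duplicateCorrelation. The scanner files of replicate 1, after normexp background correction and quantile normalization, gave 0.38, a value with no test. Leaving out 1 biological sample gave 0.042 to 0.83. The cause was not tested. Signs of single differences turned as follows. miR-51 was at 0.022 under median centring and 0.21 on the spike control, miR-56* at -0.14 and let-7 and miR-241 at -0.19 and -0.26 when scaled without the miR-35 family, let-7 at -0.038 with the second technical array, and miR-84 at 0.17, 0.15, 0.34 and 0.053 after quantile normalization, median centring, the spike control and the scanner files. Without 1 sample the ranges were -0.98 to 0.28 for miR-51, -0.13 to 1.02 for miR-52, 0.052 to 0.85 for miR-53, 0.058 to 0.90 for miR-54, -0.024 to 0.76 for miR-55, 0.0059 to 1.19 for miR-56, -0.020 to 0.38 for miR-56*, -0.26 to 0.54 for let-7, -0.20 to 0.34 for miR-241 and -0.45 to 0.0048 for miR-84. A filter at the lower detection level of 28.1, from averaged Buffer spots, was chosen after seeing the data and left 98 miRNAs and the same counts for the members (0) and for all (8). Among the 59 miRNAs above the Buffer level on all arrays, 4 passed, and miR-240 was not among those tested. The precision is limited by 2 biological samples a genotype and, for miR-56* and the dim miRNAs, by signal close to the Buffer level.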
